A study of Mus musculus with 8 samples.

Results

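The proteins of the lysosomal membrane include the vacuolar proton pump (V-ATPase), which acidifies the lysosome, and the glycoproteins, channels and carriers that surround it. The 35 genes described here were taken by symbol from a named list of pump subunits and lysosomal membrane carriers or channels, and all 35 were present among the 15867 genes of the deposited table. Of these, 18 encode proteins of the pump and 17 encode other lysosomal proteins, among them Npc2, a soluble partner of a membrane protein. Values were normalized RNA-seq counts from adipose tissue macrophages, selected by the surface marker F4/80 from mice made obese by 20 weeks of high-fat feeding. There were 8 libraries, 4 control and 4 knockout. Both groups had the genotype Mirc11 fl/fl Mirc22 fl/fl, that is, floxed alleles of 2 microRNA gene clusters, whose products belong to the families of miR-23, miR-24 and miR-27. Control samples were Lyz2 +/+ and knockout samples were Lyz2 Cre/Cre, in which Cre is expressed from the Lyz2 gene of myeloid cells in place of its own product. Loss of the clusters, presence of Cre and loss of Lyz2 therefore coincide and cannot be told apart. The labels describe the samples as biological replicates without saying whether each was 1 mouse, and p-values reflect only how much these samples vary.

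The V-ATPase has a cytosolic V1 sector, which hydrolyses ATP, and a membrane V0 sector, whose ring of proteolipid subunits carries protons into the lumen. The acid lumen activates lysosomal hydrolases, while glycoproteins such as LAMP1 line the membrane and channels and carriers move calcium, chloride, cholesterol, cystine and amino acids across it. Macrophages of obese adipose tissue are known for their lysosomes, with which they digest lipid from dying adipocytes, and many lysosomal genes share a promoter element that the transcription factor TFEB and its relatives bind.

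Total reads recovered from the normalized values ranged from 31789395 to 46621080 per library. Lyz2 checked the labels, with 156727 to 204853 normalized counts in the control libraries against 174 to 273 in the knockout libraries. Adgre1, which encodes F4/80, was at 39565 to 54126 in controls and 37439.8 to 43035 in knockouts, and these ranges overlapped. Among the 15862 genes tested, 196 rose and 377 fell in the knockout by limma with Benjamini-Hochberg adjustment at a threshold of 0.05. With each library scaled to the same total, 245 rose and 244 fell, so the share of higher calls moved from 34.2% to 50.1%.

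Of the 35 genes, 3 fell in the knockout past the threshold, and most of the others had small differences below 0. They were Tpcn1, a sodium and calcium channel of endolysosomes, Npc1, the membrane protein that exports cholesterol from lysosomes, and Ctns, the cystine exporter. None rose (1.24% of all genes tested did) and 32 did not pass. Before adjustment, 18 were lower with a limma p under the threshold, or 51.4%, where 10.4% of all genes tested were, and 0 were higher (10.8% of all genes). The 3 that fell are 8.57% of the members, where 2.38% of all genes tested fell. The median log2 difference over the 35 was -0.14 (median over all genes tested 0.00), and 31 of the 35 differences were below 0, against 49.5% of all genes. The other 4, for Atp6v1b2, Atp6v1h, Atp6v0e2 and Laptm4a, lay between 0.01 and 0.06.

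**Figure D1:**
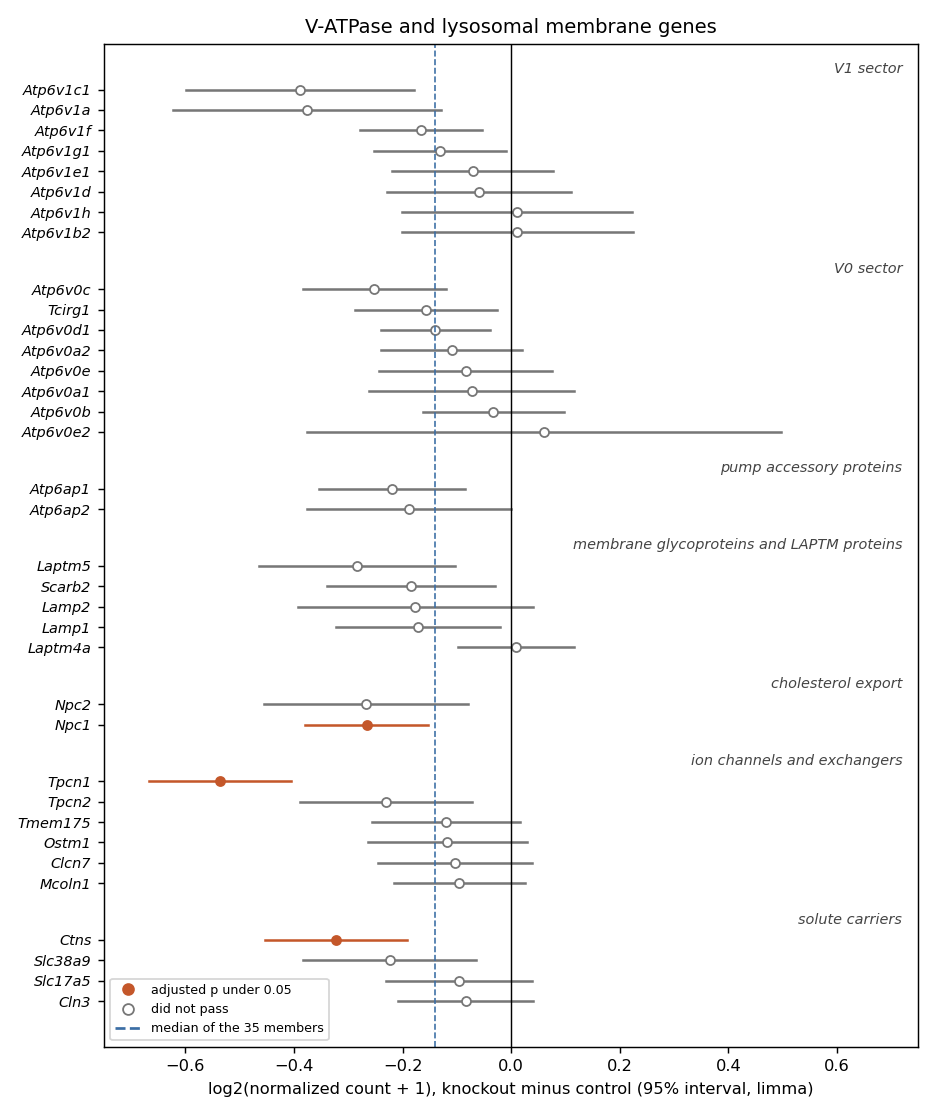
Log2 difference of each of the 35 genes, knockout minus control on the log2(normalized count + 1) scale, grouped by role, with the 95% interval from limma; filled points passed the threshold of 0.05 after adjustment and the dashed line is the median of -0.14. Tpcn1, Npc1 and Ctns are the filled points, and 31 of the 35 points lie left of 0.

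In 14 of the 35 genes (40%) every knockout library was below every control library, where 8.21% of all genes tested showed this, and in 0 the order was the opposite (5.52% of all genes). These 14 were Atp6v1a, Atp6v1c1, Atp6v1f, Atp6v0c, Atp6v0d1, Tcirg1, Atp6ap1, Lamp1, Laptm5, Npc1, Npc2, Tpcn1, Tpcn2 and Ctns. DESeq2 on the recovered reads called the same 14 genes lower and none higher (5.62% of all genes lower and 4.2% higher). The authors' deposited table gave 14 lower and 0 higher, where 5.62% of all genes were lower. It compares the same libraries and is no independent evidence. The edgeR quasi-likelihood test gave 3 lower and 0 higher, with 2.31% of all genes lower and 1.2% higher. Most members are abundant transcripts. Among the 7660 genes whose mean was 800 or more, a background chosen after the values were seen that holds 34 of the 35, 3.99% fell, 13.6% had all knockout libraries below all controls and the median log2 difference was -0.03.

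With libraries scaled to equal totals, the members' median was -0.081 (all genes 0.06) and 30 differences were below 0, against 36.6% of all genes. Only Tpcn1 was then called, or 2.86% of the members, where 1.54% of all genes tested were called lower. Control replicate 1 was the highest control for 25 of the 35 genes and knockout replicate 1 the lowest knockout for 21. Without both, the members' median was -0.11 and 28 differences were below 0, against 48.9% of all genes. Tpcn1 alone was then called, where 0.757% of all genes tested were called lower, and the differences of Atp6v1d (0.047), Atp6v1e1 (0.014), Atp6v0a1 (0.029) and Atp6v0b (0.012) were above 0. The number called was 1 when control replicate 3 or 4 or knockout replicate 1, 3 or 4 was left out, and 2 without control replicate 1 or knockout replicate 2. Calls over all genes, in both directions, also fell in these fits, from 573 to between 163 and 502.

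None of the 18 pump genes passed the threshold, where 2.38% of all genes tested fell and 1.24% rose. For a list of 18 genes, 0 calls is near those shares. The median log2 difference of the pump genes was -0.12, with 15 below 0 (83.3%), against 49.5% of all genes. Averaged over the 18 genes, log2 levels relative to the control mean were 0.11, -0.025, -0.042 and -0.038 in the 4 controls, replicates 1 to 4 in order, and -0.22, -0.14, -0.061 and -0.0999 in the knockouts. Every knockout library was below every control library on this average, but the gap between knockout replicate 3 and the lowest control was small. In the 17 other members the same averages were 0.036, -0.065, -0.0090 and 0.039 in controls and -0.26, -0.19, -0.15 and -0.17 in knockouts, with a median gene difference of -0.18. The difference between the pump genes and the others was not tested.

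In the V1 sector, Atp6v1c1 and Atp6v1a had the lowest differences. Atp6v1c1, the C subunit that joins V1 to V0 when the pump assembles, was at 6619, 5666, 5738 and 5108 normalized counts in controls (replicates 1 to 4, as in all such lists) and 3876, 4295, 4690.3 and 4796 in knockouts. Atp6v1a, the catalytic A subunit, was at 21039.9, 17382, 17089.7 and 15914 in controls and 11561, 13577, 14748 and 15116 in knockouts. In both genes the groups did not overlap, although the highest knockout library lay close to the lowest control. The log2 difference was -0.39 (SE 0.093) for Atp6v1c1, with limma and Benjamini-Hochberg adjusted p = 0.0569. It was -0.38 (SE 0.11) for Atp6v1a, with a limma adjusted p of 0.0974.

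Atp6v1b2, the nucleotide-binding B subunit and the V1 gene with the highest counts, showed no such order. Its values were 28484, 24048, 24027 and 23774 in controls and 22149, 24126, 27121 and 27864 in knockouts. The groups overlapped, knockout replicates 2, 3 and 4 being above 3 of the controls, and the log2 difference was 0.01 with a 95% interval from -0.20 to 0.22. Atp6v1h, the H subunit, had the same difference of 0.01. The remaining V1 subunits, Atp6v1d, Atp6v1e1, Atp6v1f and Atp6v1g1, had differences from -0.17 to -0.059, and none passed the threshold. The A and B subunits alternate in the V1 head, and the difference between them was not tested.

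In the V0 sector, Atp6v0c, the main proteolipid of the rotating ring, came nearest the threshold. It was at 22876, 20814, 21756 and 22974 in controls and 18242, 17949.6, 19670.1 and 18366 in knockouts, and the groups did not overlap. The log2 difference was -0.25 (SE 0.058), with a limma adjusted p of 0.0510. With only genes whose mean was 50 or more tested, the limma adjusted p was 0.0414. With equal totals it was 0.0738, and with each library left out it was from 0.0557 to 0.133. Its companion proteolipid Atp6v0b had a log2 difference of -0.033, or 0.026 with equal totals.

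The a subunit, which forms the proton path and directs the pump to a compartment, has several paralogs. Tcirg1 (a3), the form of osteoclasts and macrophage lysosomes, was at 23148, 22932, 23353 and 24264 in controls and 19993, 20387, 22574 and 21156 in knockouts. Atp6v0a1 (a1) was at 22390.5, 18251, 19286 and 18505 in controls and 17225, 17789, 19161 and 20314 in knockouts. Tcirg1 did not overlap between groups, with a log2 difference of -0.16 and a limma adjusted p of 0.173, whereas Atp6v0a1 overlapped at -0.073 and 0.666. Atp6v0a2 (a2), of the Golgi, was at 3159, 3019, 2895 and 2886 in controls and 2607, 2655, 2915 and 2913 in knockouts. Its groups overlapped, with a log2 difference of -0.11 (limma adjusted p = 0.311). The ratio of Tcirg1 to Atp6v0a1 differed by -0.084 on the log2 scale (2-sided exact permutation p = 0.343 over 70 assignments of the 8 samples, adjusted over 9 pairs 0.771). The smallest p these assignments allow is 0.0286. After adjustment over the 9 pairs, that p can pass the threshold only if most of the pairs reach it.

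The remaining V0 members were within 0.14 of 0 on the log2 scale. Atp6v0d1, a d subunit of the central stalk, was at 5302, 4929.6, 4859 and 5008 in controls and 4551, 4574, 4626 and 4484 in knockouts, without overlap, and had a difference of -0.14 (limma adjusted p = 0.121). Atp6v0e, a small membrane subunit, was at 4708, 4602, 4210.2 and 4099 in controls and 3767, 4125, 4207 and 4534 in knockouts. Its groups overlapped, with a log2 difference of -0.084. Its paralog Atp6v0e2 had the lowest normalized counts, at 168, 192, 189 and 199.7 in controls and 227, 254, 191 and 131 in knockouts, so that the knockouts spread on both sides of the controls. Atp6v0d2, a d paralog of osteoclasts and macrophages outside the 35 genes, was at 21596, 14953, 14345 and 13409 in controls and 9527, 11889, 12999 and 14217 in knockouts. The highest knockout exceeded the lowest control, and the log2 difference was -0.39 (SE 0.17, limma adjusted p = 0.221). Ratios of Atp6v0d2 to Atp6v0d1 and of Atp6v0e2 to Atp6v0e differed by -0.25 and 0.14 (2-sided exact permutation p = 0.257 and 0.600).

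The accessory proteins assemble around the V0 sector and also serve sorting and signalling. Atp6ap1 was at 12755, 11201, 11561 and 12476 in controls and 10046, 9913, 10882 and 10332 in knockouts, without overlap. Its log2 difference was -0.22 (SE 0.060, limma adjusted p = 0.0819). Atp6ap2, also known as the prorenin receptor, was at -0.19 with a limma adjusted p of 0.235.

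Levels between genes were compared per kilobase of transcript, using the longest annotated coding transcript of each gene in GENCODE M21. Among the pump genes, Atp6v0c was highest in controls at 18686 ± 864 normalized counts per kb (SD, n = 4), followed by Atp6v0b at 9754 ± 355 and Atp6v1b2 at 8879 ± 804. The library ranges of Atp6v0b and Atp6v1b2 overlapped, and Tcirg1 came next at 7703 ± 193. The lowest were Atp6v0a2 at 559 ± 24.0 and Atp6v0e2 at 105 ± 7.62. Among a-subunit transcripts Tcirg1 made up 58.6% ± 2.39 in controls and 57.3% ± 1.30 in knockouts, Atp6v0a1 37.1% ± 2.36 and 38.4% ± 1.28, and Atp6v0a2 4.25% ± 0.157 and 4.29% ± 0.0295 (SD, n = 4). Of d-subunit transcripts, Atp6v0d2 made up 66.8% ± 3.91 in controls and 62.8% ± 4.10 in knockouts. The ranges of both groups overlapped for each of these shares. The order depends on the transcript length used: with the median transcript, Atp6v1a moved from 4217 to 19973.5 per kb in controls and Atp6v0d2 from 66.8% to 77.7%, the transcript lengths being 4234 and 894 bases for Atp6v1a.

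**Figure D2:**
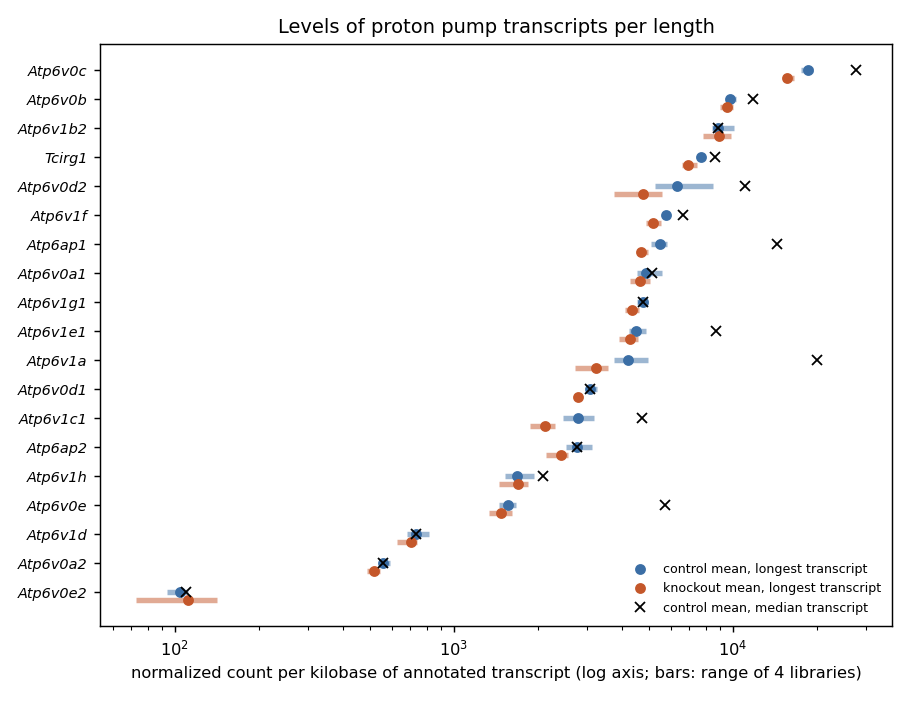
Normalized count per kilobase of annotated transcript for the 18 pump members and Atp6v0d2, on a log axis; points are group means, bars the range of the 4 libraries, and crosses the control mean with the median transcript length. Atp6v0c is highest and Atp6v0e2 lowest with the longest transcript, and Atp6v1a moves most when the median length is used.

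Among the membrane glycoproteins, Lamp1, the member with the highest normalized counts, was at 54275, 48567, 49571 and 51918 in controls and 44161, 44766, 47054 and 45299 in knockouts. Per kilobase Lamp1 ranked 1 in controls with the longest transcript and 3 with the median transcript, behind Laptm5 and Atp6v0c. Lamp2, which also serves chaperone-mediated autophagy, was at 20715, 16586, 16859 and 18077 in controls and 13636, 16614, 16889.7 and 16751 in knockouts. Lamp1 did not overlap between groups and Lamp2 did, and their log2 differences were -0.17 (SE 0.067, limma adjusted p = 0.188) and -0.18 (SE 0.096, limma adjusted p = 0.328). Their ratio differed by 0.0053 (2-sided exact permutation p = 0.971). Scarb2, which carries glucocerebrosidase to the lysosome, was at -0.18 with a limma adjusted p of 0.173.

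The LAPTM proteins span the lysosomal membrane several times. Laptm5, a form of blood cells, was at 37692, 33824, 36899.5 and 42932 in controls and 30955, 30442, 32249 and 30226 in knockouts, without overlap. The broadly expressed Laptm4a was at 14308, 14059, 13515 and 14093 in controls and 13535, 14276, 14195 and 14337 in knockouts, where the groups covered the same range. The log2 difference was -0.28 (SE 0.080, limma adjusted p = 0.0895) for Laptm5 and 0.0094 (95% interval -0.097 to 0.12) for Laptm4a. The ratio of Laptm5 to Laptm4a was lower in all 4 knockouts than in any control and differed by -0.29 on the log2 scale. The 2-sided exact permutation p was 0.0286, the smallest possible, and 0.129 after adjustment over the 9 pairs.

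Cholesterol leaves the lysosome through Npc2, which takes it up in the lumen, and Npc1, which passes it through the membrane. Npc1 was at 8538, 7825, 8505 and 8454 in controls and 6614, 6881, 7062 and 7146 in knockouts. Npc2 was at 25522, 22957, 23109.5 and 27332 in controls and 19944, 18529, 22319.7 and 21341 in knockouts. Neither gene overlapped between groups. Npc1 fell from 8331 ± 338 to 6926 ± 235 (SD, n = 4), a log2 difference of -0.27 (SE 0.050, limma adjusted p = 0.0263). The call was kept without control replicate 2 and lost without each of the other 7 libraries, with limma adjusted p from 0.0541 to 0.0799, and with equal totals it was 0.0547. Npc2 had the same difference of -0.27 with a wider error (SE 0.083, limma adjusted p = 0.114), and the ratio of the pair differed by 0.0019 (2-sided exact permutation p = 0.943).

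**Figure D3:**
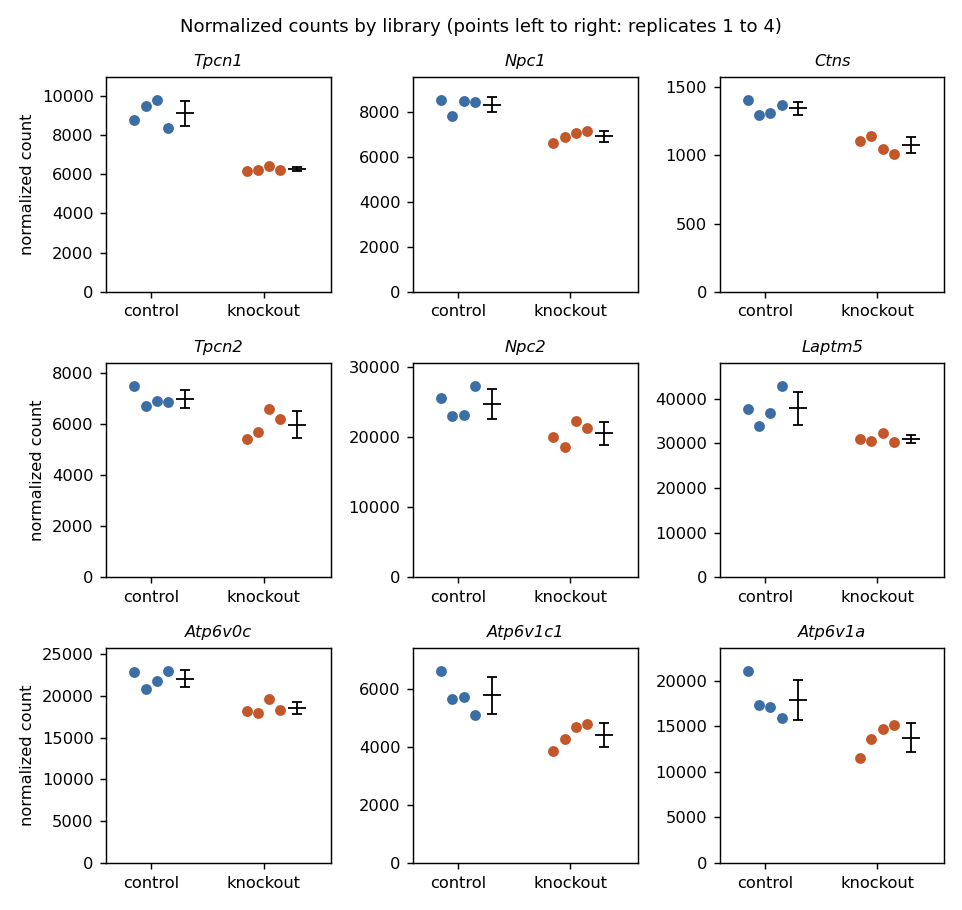
Normalized counts of 9 members in each library, replicates 1 to 4 from left to right, with the group mean and SD (n = 4) beside them. All 9 are among the 14 members whose groups do not overlap, so knockout libraries lie below all controls in each panel by this choice. The gap is wide for Tpcn1 and narrow for Atp6v1a, Npc2 and Tpcn2.

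Of the ion channels and exchangers, Tpcn1 changed most among the 35 genes. Tpcn1 (a two-pore channel, chr5:120534153-120588673 on the minus strand of mm10) opens endolysosomes to sodium and calcium. It was at 8776, 9454, 9767 and 8351 in controls and 6159, 6225, 6416 and 6214 in knockouts. The 4 knockouts lay close together, far below the lowest control. Tpcn1 fell from 9087 ± 642 to 6253 ± 112 (SD, n = 4), a change of -31.1%, a log2 difference of -0.54 (SE 0.058, limma adjusted p = 0.00357). The call was kept in all 8 fits that left out 1 library, with limma adjusted p from 0.00622 to 0.0166, and with both replicates 1 left out.

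Tpcn2, the paralog found on lysosomes proper, was at 7486, 6682, 6878 and 6862 in controls and 5411, 5669, 6568 and 6191 in knockouts, without overlap but with knockout replicate 3 close to the controls. Its log2 difference was -0.23 (SE 0.070, limma adjusted p = 0.110). The log2 ratio of Tpcn1 to Tpcn2 was 0.38 ± 0.14 in controls and 0.073 ± 0.10 in knockouts (SD, n = 4), lower in all 4 knockouts than in any control. The 2-sided exact permutation p was 0.0286, the smallest possible, and 0.129 over the 9 pairs.

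The other channels differed less. Clcn7, the chloride and proton exchanger, was at 7109, 6873, 7494 and 7999 in controls and 6653, 6608, 7390.0 and 6768 in knockouts, and its partner Ostm1 at 3227, 3009.6, 2959 and 3127 and 2534, 2834, 2981 and 3027. Both overlapped between groups, at -0.10 and -0.12 (limma adjusted p = 0.385 and 0.335), and their ratio differed by 0.014 (2-sided exact permutation p = 0.800). Mcoln1, the calcium channel TRPML1, was at -0.096, and Tmem175, a potassium and proton channel, at -0.12. Annotated exons of Tmem175 share 35.3% of their bases with Dgkq on the opposite strand. Smaller shares overlap another gene of the deposited table on the opposite strand in Lamp1 (9.3%), Cln3 (7.6%), Npc1 (4.5%) and Atp6v1h (1.3%). No source used here says whether reads were counted by strand.

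**Figure D4:**
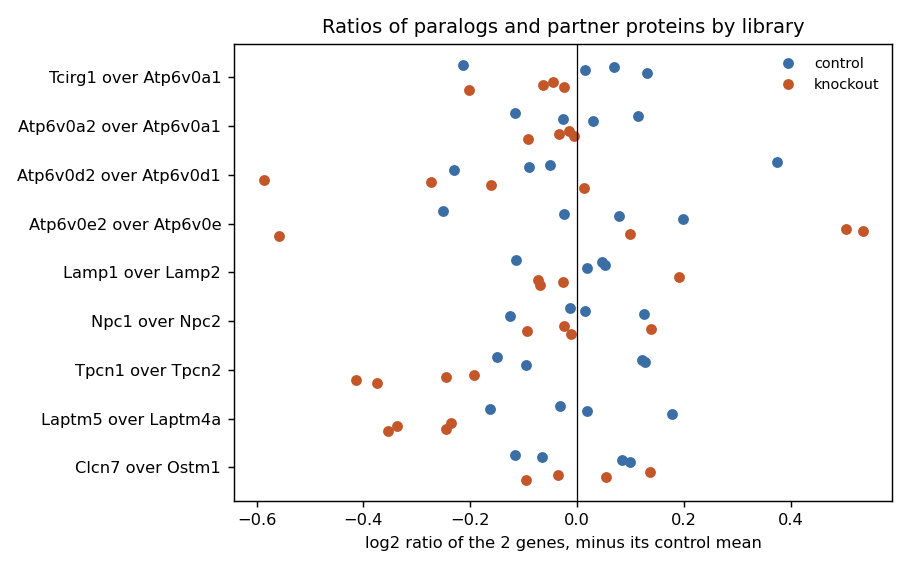
Log2 ratio of 2 paralogs or partner proteins in each library, minus the control mean of that ratio, for the 9 pairs compared. Only Tpcn1 over Tpcn2 and Laptm5 over Laptm4a have all knockouts below all controls. None of the 9 passed the 2-sided exact permutation test after adjustment. The smallest possible p, 0.0286, passes this adjustment only where most of the 9 pairs reach it, so with 2 pairs at that p neither could pass.

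The solute carriers export the products of digestion. Ctns (cystinosin, chr11:73183596-73199042 on the minus strand of mm10), which exports cystine, was at 1404, 1298, 1311 and 1365 in controls and 1106, 1139.6, 1048 and 1008 in knockouts, a clear gap. It fell from 1344 ± 49.1 to 1075 ± 59.0 (SD, n = 4), a log2 difference of -0.32 (SE 0.058, limma adjusted p = 0.0234). The call was lost without control replicate 3 or 4 or knockout replicate 1, 3 or 4 (limma adjusted p from 0.0547 to 0.0676), and with equal totals (0.0663). Slc38a9, the arginine sensor that signals to mTORC1, overlapped between groups at -0.22 (limma adjusted p = 0.119). Cln3, whose loss causes Batten disease, was at 2808, 2917, 3103 and 3154 in controls and 2831, 2754, 2988 and 2727 in knockouts, with overlap. Its log2 difference was -0.084 (limma adjusted p = 0.424), and that of Slc17a5, the sialic acid exporter, was -0.097 (limma adjusted p = 0.395).

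Promoters were read for the 28 members with an entry in RefSeq (GRCm38.p6), from 250 bases before to 50 after the start site, and searched on both strands for CACGTG and for GTCACGTG and TCACGTGA, which contain it and can overlap. CACGTG is the core of the element that TFEB and its relatives bind. It occurred in 8 of the 28 (28.6%), against 10.9% of the 11904 tested genes with an entry and 7.15% of all 32851 promoters. A gene counted if any of its entries matched, whereas the last share counts single entries and is not a like measure. GTCACGTG occurred in 6 (21.4%, against 4.27% of tested genes) and TCACGTGA in 6 (21.4%, against 1.94%). The 8 were Atp6v0b, Atp6v0d1, Atp6v0e, Atp6v1a, Clcn7, Cln3, Lamp1 and Mcoln1. Those of 3 genes that hold several copies are shown, 5' to 3', with the bases of any match in capitals.
Lamp1, chr8:13158911-13159210, plus strand: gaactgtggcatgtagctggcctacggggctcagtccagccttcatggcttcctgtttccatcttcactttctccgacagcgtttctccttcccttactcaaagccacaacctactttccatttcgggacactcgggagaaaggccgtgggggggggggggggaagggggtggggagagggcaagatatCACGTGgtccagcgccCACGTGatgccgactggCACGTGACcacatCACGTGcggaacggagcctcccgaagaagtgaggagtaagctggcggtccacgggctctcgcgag
Mcoln1, chr8:3500269-3500568, plus strand: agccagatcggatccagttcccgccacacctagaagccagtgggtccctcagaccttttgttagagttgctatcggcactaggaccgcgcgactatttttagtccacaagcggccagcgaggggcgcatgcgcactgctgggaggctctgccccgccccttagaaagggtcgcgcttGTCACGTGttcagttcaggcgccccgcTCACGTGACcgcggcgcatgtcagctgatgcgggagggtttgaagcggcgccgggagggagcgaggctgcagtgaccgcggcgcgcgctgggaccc
Clcn7, chr17:25133141-25133440, plus strand: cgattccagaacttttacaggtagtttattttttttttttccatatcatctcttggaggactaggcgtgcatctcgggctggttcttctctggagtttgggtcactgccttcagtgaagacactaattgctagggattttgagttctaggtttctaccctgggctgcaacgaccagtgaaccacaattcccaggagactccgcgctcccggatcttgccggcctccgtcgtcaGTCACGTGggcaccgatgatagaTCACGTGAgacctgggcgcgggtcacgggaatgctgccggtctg
Lamp1 holds CACGTG 4 times, 61, 45, 28 and 15 bases before its start site. Mcoln1 holds it 71 and 45 bases before the start, and Clcn7 15 bases before and 7 bases after.

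The median log2 difference was -0.0997 over the 8 genes with a match, -0.17 over the 20 without one and -0.13 over the 7 without an entry (Atp6v1b2, Atp6v1c1, Atp6v1g1, Atp6v1h, Atp6v0a2, Npc1 and Tpcn1). By limma, 0 of the 8 with a match, 1 of the 20 without one and 2 of the 7 without an entry fell, where 2.38% of all genes tested did. The 1 without a match was Ctns, which had none in either of its entries. Such counts are too small to compare, and the difference was not tested. These matches describe letters in a window, and binding was not measured.

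The deleted clusters encode microRNAs that pair through bases 2 to 8, the seed, with 3' untranslated regions. The mature sequences are shown from RefSeq (GRCm38.p6), 5' to 3' with the seed in capitals, since they define the sites counted in the members.
mmu-miR-23a-3p: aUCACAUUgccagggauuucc
mmu-miR-27a-3p: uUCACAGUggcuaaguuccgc
mmu-miR-27b-3p: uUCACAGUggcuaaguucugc
mmu-miR-24-3p: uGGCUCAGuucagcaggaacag
The clusters also encode miR-23b-3p, which is not shown because no sequence of it was available here. miR-27a and miR-27b share a seed, and miR-24 is encoded in both clusters. Matches to the 7 seed-pairing bases in the longest annotated 3' untranslated region were found in 15 of the 35 genes (42.9%), against 41.1% of 14796 tested genes. By family the shares were 28.6% of members against 16.8% of genes for miR-23, 17.1% against 17.8% for miR-27, and 17.1% against 19.2% for miR-24. Median lengths of these regions were 1227 bases in the members and 1182 in all genes.

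Npc2 held 4 matches, Atp6v1a 3 and Npc1 1, while Tpcn1 and Ctns, which fell, held none. Some of the matches are shown to let them be set against the seeds, in DNA letters read 5′ to 3′ from mm10 with the match in capitals.
Npc2, miR-27: ggctatggatccACTGTGAag
Atp6v1a, miR-23: gttacctctgaaAATGTGAaa
Lamp1, miR-23: tctgctttatcaAATGTGAag
The median log2 difference was -0.11 over the 15 genes with a match and -0.16 over the 20 without. Of the genes that fell, 1 had a match and 2 had none. No member rose, with or without a match.

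Other genes of the lysosome, from lists chosen with earlier results of these data known, were examined for the same contrast. Over all genes tested, 2.38% fell and 1.24% rose. In the lists of 4, 7 and 9 genes, counts of 0 or 1 are too small to set apart from these shares. Among 4 other V-ATPase subunits, 0 rose and 0 fell. Of 11 genes for V-ATPase assembly and regulation, 2 fell (18.2%). They were Wdr7, a component of the complex that reassembles the pump (log2 difference -0.31, limma adjusted p = 0.0372), and Ccdc115, an assembly factor (-0.28, limma adjusted p = 0.0263). Neither was called with equal totals, and with each library omitted in turn Ccdc115 was called in 2 of 8 fits and Wdr7 in 0. All 9 Ragulator and Rag GTPase genes, which tether mTORC1 to the lysosome, had differences below 0 with a median of -0.16, and none passed. Of 7 MiT/TFE and folliculin genes, only Fnip2, a folliculin partner, fell (-0.56, limma adjusted p = 0.0233), with the call kept in 4 of these 8 fits. Tfeb, named after its values were seen, was at -0.33 (limma adjusted p = 0.0823).

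Of 36 other lysosomal membrane genes 7 fell (19.4%, where 2.38% of all genes tested did), 0 rose and 29 did not pass, with a median of -0.16. The 7 were Cd68, a macrophage LAMP-family glycoprotein, the heme transporter Slc48a1, the metal transporters Slc11a1 and Slc11a2, the amino acid transporter Slc36a1, Slc46a3 and the heparan sulfate acetyltransferase Hgsnat. Slc48a1 had a log2 difference of -0.50 (SE 0.066, limma adjusted p = 0.00761) and stayed called whichever library was omitted. The other 6 calls were lost in some of these fits. Cd68 was called in 5 of the 8, Slc46a3, Slc11a1 and Slc11a2 in 2, and Slc36a1 and Hgsnat in 1. With equal totals Slc46a3 and Hgsnat were not called (limma adjusted p = 0.0581 and 0.0721). Of 41 soluble hydrolases and activators 6 fell (14.6%), 1 rose and 34 did not pass, with a median of -0.20. The hydrolase gene that rose was Gaa, the acid glucosidase that degrades glycogen, at 0.64 (limma adjusted p = 0.00367), and the largest fall was in Ctsk, cathepsin K, at -2.13 (limma adjusted p = 0.00104), both called in all 8 fits.

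Markers of cell types were examined beside the members. Of 16 macrophage markers, 5 fell (Csf1r, Cd68, Itgam, Mpeg1 and Msr1) and 0 rose, with a median log2 difference of -0.32. The 5 are 31.25% of the list, where 2.38% of all genes tested fell. Differences were below 0 for 13 of them and above 0 for 3, Aif1 (0.027), Cx3cr1 (0.092) and Mrc1 (0.19). Cd68 is also in the list of other lysosomal membrane proteins. Summed macrophage marker counts were 403280 to 486305 in controls and 339914 to 375420 in knockouts, beside 360477 to 400831 and 314998 to 350533 for the summed members. Of 16 endothelial and mural markers, 0 passed and 15 were above 0 (median 0.47), with sums of 149507 to 249201 in controls and 232362 to 321459 in knockouts. All 12 fibroblast and preadipocyte markers were above 0 (median 0.33, none past the threshold), with sums of 192662 to 306071 and 240098 to 336645. No marker of these lists that the table holds was listed at 0 in any library, where the lowest value deposited corresponds to 1 read. The part of cell makeup in the members' differences was not tested, and in these bulk libraries fewer macrophages and less RNA per macrophage cannot be told apart.

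**Figure D5:**
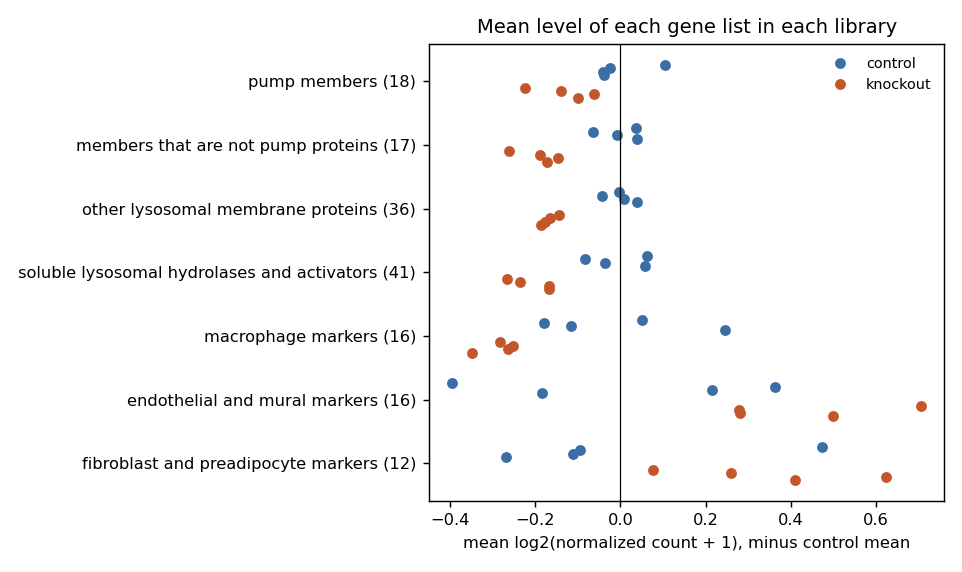
Mean log2(normalized count + 1) of each gene list in each library, minus the mean of the controls; points are libraries and the number of genes is in brackets. The 4 knockout libraries lie below the controls for the pump genes, the other members, the other lysosomal membrane genes, the hydrolases and the macrophage markers, and the knockouts overlap the controls at higher values for endothelial and fibroblast markers.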

How the data were processed

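Poly(A)-selected RNA libraries of F4/80-positive adipose tissue macrophages, 4 control and 4 knockout, were grouped by genotype label and numbered by title. The authors deposited normalized gene counts, a signal with 1 column per sample; per the submitters' processing notes the build was mm10 and the tools were Salmon, DESeq2, cutadapt and FastQC, without versions, roles or order. Dividing each value by 1 factor per sample gave whole reads for 100% of values within 0.01 reads; in control replicate 4 this factor lies near 1 and cannot be told from rounding by low values alone. The authors' deposited comparison holds, per the file headers, mean signal, log2 fold changes of control over knockout, test statistic scores and p-values.

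The test was limma 3.58.1 (R 4.3.3) on log2(value + 1), eBayes with trend, two-sided, over 15862 genes with a mean of at least 10, Benjamini-Hochberg adjusted with a threshold of 0.05; such log2 differences understate changes of low genes. As the values are not raw counts, edgeR 4.0.16 (quasi-likelihood, TMM) and DESeq2 1.42.0 ran on recovered reads as alternatives. The scripts were tested on simulated data. Other alternatives were pseudocounts of 0.5 and 5, other filters, equal totals, a replicate block, each library left out, both replicates 1 left out (chosen after seeing the data) and median transcript lengths. Ratios of 9 pairs were compared by two-sided exact permutation tests.

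Members and lists were chosen with earlier results of these data known. Every member is accounted for; values in every sample are given for members past the threshold, that with the highest counts of each role, the pairs and others near the threshold, the last chosen after their values were seen. Genes outside the members are named where they passed the threshold or belong to a pair, unless stated. Of the hydrolases that passed, only the gene that rose and the one with the largest fall are named. Of the listed genes, Atp6v1b1, Atp6v1e2, Atp6v1g3, Atp6ap1l, Tldc2, Lamp3, Lamp5, Ly6g and Retnlg were not matched in the table, and Tldc1 and Tmem55b were matched as Meak7 and Pip4p1. Lists of markers of adipocytes, mesothelium, neutrophils, dendritic cells, B cells, and T and NK cells had median differences of 0.33, 0.23, 0.093, 0.58, 0.51 and 0.70, and none of their genes passed the threshold. Within groups, no 2 libraries were as close as sampling noise allows (chi-square per gene from 8.86 to 72.9), so all 8 were kept. Gene positions and transcripts came from GENCODE M21.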

Additional observations from a re-analysis of the deposited data

Results flagged for a closer look

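Of 92 groups of 4 libraries examined for 46 genes, 6 held a library whose gap to the nearest other library took up more of the group's range than Dixon's test allows at 95%, where chance gives about 1 in 20 groups. Knockout replicate 1 was the lowest knockout for Atp6ap2 (4998 normalized counts, the others from 5822 to 5973), for Lamp2 (13636, the others from 16614 to 16889.7) and for Slc17a5 (1555, the others from 1769.6 to 1790.1), and the highest for Slc11a2 (1832, the others from 1443 to 1482). Control replicate 1 was the highest control for Atp6v1b2, at 28484 against 23774 to 24048 in the others. Control replicate 2 was the lowest control for Npc1, at 7825 against 8454 to 8538.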

How the results depend on the processing

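The number of the 35 members called lower, 3, was 3 with either other pseudocount, with no filter and with edgeR, and 4 when genes needed a mean of 50 or more. The number was 1 with equal totals, 14 with DESeq2 and 1 with both replicates 1 left out, and 1 to 3 with each library left out in turn; no member was called higher in any of these fits. Over all genes, 573 calls became 1557 with DESeq2, 226 without both replicates 1 and 163 to 502 with each library left out. The V-ATPase assembly list went from 2 calls to 0 with equal totals, 4 with DESeq2, 0 without both replicates 1 and 0 to 1 with each library left out. The other lysosomal membrane list went from 7 to 12 with DESeq2, 2 without both replicates 1 and 1 to 7 with each library left out. The MiT/TFE list went from 1 to 3 with DESeq2 and 0 to 1 with each library left out, the hydrolases from 7 to 18 and 4 to 7, and the Ragulator list from 0 to 1 with DESeq2 and 1 when genes needed a mean of 50 or more. The cause was not tested in these cases.

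With the replicate number as a block, 7 genes were called, with 0 among the members, the assembly, other lysosomal membrane, MiT/TFE and hydrolase lists. Libraries with the same number did not deviate together (correlations of -0.20, -0.20, -0.036 and -0.29 for numbers 1 to 4). The values thus gave no sign of pairing by number, but they cannot show how the samples were collected.

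Directions near 0 turned. The difference of Atp6v0b was 0.026 with equal totals. Without both replicates 1, differences were 0.047 for Atp6v1d, 0.014 for Atp6v1e1, 0.029 for Atp6v0a1, 0.012 for Atp6v0b and -0.063 for Atp6v0e2. With each library left out, differences ranged from -0.037 to 0.074 for Atp6v1b2, -0.038 to 0.085 for Atp6v1h, -0.066 to 0.25 for Atp6v0e2 and -0.0072 to 0.028 for Laptm4a. Ratio differences ranged from -0.076 to 0.00062 for Atp6v0a2 to Atp6v0a1, -0.057 to 0.032 for Lamp1 to Lamp2, -0.043 to 0.043 for Npc1 to Npc2 and -0.026 to 0.051 for Clcn7 to Ostm1. In controls Atp6v0d2 stood 2.05 times above Atp6v0d1 per length, or 3.58 times with the median transcript. The number of libraries, 4 per group, limits the precision.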
